A study of Mus musculus with 10 samples.

Results

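The genes described here are 44 mouse genes of glutathione, peroxiredoxin and thioredoxin metabolism, taken by symbol from a table of raw RNA sequencing counts, and all 44 were found among its 25239 symbols. They were 4 alpha-class, 5 mu-class and 7 other soluble glutathione S-transferases, 3 microsomal glutathione S-transferases, 4 genes of glutathione synthesis and recycling, 5 glutathione peroxidases, 6 peroxiredoxins with the sulfiredoxin Srxn1, 4 thioredoxin system genes, 4 genes around the transcription factor NRF2, and Sod1. The libraries formed 4 groups. MLTC-1 is a line grown from a Leydig cell tumour of the mouse, so 1 line stands for its cell type. It was exposed either to DMSO alone as the vehicle (n = 3) or to hymeglusin (n = 3), which blocks HMG-CoA synthase in the cytosol. Leydig cells make testosterone in the interstitium of the testis, and primary ones were isolated from untreated mice at 2 months (n = 2) or 24 months of age (n = 2). The labels give no strain, genotype, dose, duration or method of isolation, and do not say whether animals were pooled or whether replicates were separate cultures or animals. The p-values therefore measure the spread between these libraries, which may be technical.

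Glutathione is made from glutamate, cysteine and glycine, and glutathione S-transferases couple it to reactive carbonyls and drugs. Glutathione peroxidases and peroxiredoxins reduce peroxides, mostly with electrons from glutathione or thioredoxin. Glutathione reductase and thioredoxin reductase return glutathione and thioredoxin to their working form with electrons from NADPH. Many of these genes are known targets of NRF2, which KEAP1 holds inactive until electrophiles or oxidants modify it. In Leydig cells these enzymes sit beside mitochondrial and microsomal cytochrome P450 enzymes, whose electron transport during steroid synthesis leaks reactive oxygen.

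Total counts per library ranged from 17407456 to 34787330, so that 3 counts, the limit set for a gene with 0 counts, correspond to 0.0862 to 0.172 CPM, the count scaled to the size of its library. This limit and the levels below cover counting error only. Of the 10 Leydig cell markers checked, all were detected in every primary library, with summed levels of 22442 and 19119.9 CPM in the 2-month and 27176 and 18368 CPM in the 24-month libraries. In MLTC-1 the sum was 9589 to 10007 CPM with DMSO and 6749.7 to 6902 CPM with hymeglusin, and Hsd17b3, the enzyme of the last step to testosterone, was almost absent at means of 0.0136 and 0.161 CPM. Spermatid markers, among them the protamine Prm1, summed to 5.60 to 8.06 CPM in MLTC-1, to 2426 and 3180.1 CPM in the 2-month libraries, and to 12612 and 6908 CPM in the 24-month libraries. The summed level of the stromal fibroblast markers was lower at 24 months (83.4 and 153 CPM) than at 2 months (644 and 596 CPM). Of these 6 markers, 3 were lower and 2 higher at an adjusted p under 0.05, beside 15.1% and 13.5% of all tested genes. Macrophage markers were higher in sum at 24 months (56.3 and 47.0 CPM) than at 2 months (13.3 and 14.6 CPM). In bulk RNA, fewer cells of a type and less RNA per cell cannot be told apart.

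The promoters were searched because NRF2 binds antioxidant response elements, whose core was spelled TGACNNNGC and sought on both strands of the window from 250 bases before to 50 bases after each RefSeq start site (GRCm38.p6). A window was found for 38 of the 44 genes, and 10 of these (26.3%) held the core, beside 3781 of 27025 genes with a window (14%). Counted by window, 20% of the 50 member windows and 12.4% of all 32851 windows held it. The stretches below show cores from genes that fell with hymeglusin (Mgst1, Prdx1, Sod1), genes that rose at 24 months (Gsta3, Gstm5, Gstm7), and genes without a call in either comparison (Gclm, Txnrd1, Nfe2l2). Each is printed 5′ to 3′ on the strand of its gene, with the core or its reverse complement in capitals. Distances are counted from the start site of the window that held the core. The stretches of Gstm7 and Txnrd1 lie inside the gene bounds (chr3:107926334-107931877 and chr10:82833951-82897724), near an internal start site. Another Gstm7 window held no match.
Mgst1, chr6:138140456-138140494, plus strand, core 56 bases before the start: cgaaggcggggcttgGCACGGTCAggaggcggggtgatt
Prdx1, chr4:116685451-116685489, plus strand, core 133 bases before the start: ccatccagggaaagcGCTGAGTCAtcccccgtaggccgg
Sod1, chr16:90220691-90220729, plus strand, core 56 bases before the start: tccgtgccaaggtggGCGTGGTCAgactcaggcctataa
Gsta3, chr1:21240449-21240487, plus strand, core 121 bases before the start: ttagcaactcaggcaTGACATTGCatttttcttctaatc
Gstm5, chr3:107895797-107895835, plus strand, core 42 bases before the start: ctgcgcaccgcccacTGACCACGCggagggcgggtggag
Gstm7, chr3:107931720-107931758, minus strand, core 129 bases before the start: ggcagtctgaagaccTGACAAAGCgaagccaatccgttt
Gclm, chr3:122245408-122245446, plus strand, core 134 bases before the start: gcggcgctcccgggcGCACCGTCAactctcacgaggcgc
Txnrd1, chr10:82859099-82859137, plus strand, core 92 bases before the start: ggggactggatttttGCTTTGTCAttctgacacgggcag
Nfe2l2, chr2:75704880-75704913, minus strand, core 240 bases before the start: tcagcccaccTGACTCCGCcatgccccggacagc
The core was held by 3 of the 15 genes with a window that fell with hymeglusin, 1 of 3 that rose and 6 of 16 without a call. At 24 months it was held by 3 of 21 genes that rose, 0 of 1 that fell and 7 of 16 without a call. A match describes these letters and shows neither binding nor a cause.

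Per kilobase of the principal transcript, the same 3 genes had the highest levels in all 4 groups. Gstm1, a mu-class transferase at chr3:108012250-108017973, stood at 1537 CPM per kb with DMSO, 1517 with hymeglusin, 3178 at 2 months and 10587 at 24 months. Gstm2, of the same cluster at chr3:107981702-107986420, was the second at 1052, 884, 2089.6 and 6671 CPM per kb in the same order of groups. Sod1, the cytosolic copper-zinc superoxide dismutase at chr16:90220762-90226333, was the third at 985, 805, 1285 and 2606 CPM per kb. This place rests on its principal transcript of 641 bases: on its longest, of 3970 bases, Sod1 was at 159 CPM per kb with DMSO and in place 12 or 13 in the 4 groups, while Gstm1 and Gstm2 stayed first and second. Gstm1 alone made up 18.6% of the summed level of the 44 genes per kilobase with DMSO, 21.5% with hymeglusin, 28.7% at 2 months and 32.9% at 24 months. Of their 50-base words, Gstm1 shares 23.1%, Gstm2 9.36% and Sod1 23.1% with transcripts of other genes, so their levels are uncertain. The scales of MLTC-1 and of the primary cells were set separately, so these levels are not tested against each other.

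Of the 44 genes, 4 were at or near 0 in MLTC-1. Gstk1, the mitochondrial kappa-class transferase, had 0 counts in all 3 DMSO libraries and 2 counts in hymeglusin replicate 1 only, beside 81.1 and 66.2 CPM in the 2-month and 409 and 296 CPM in the 24-month cells. Gsto1, the omega-class transferase, had 0 counts in all 3 DMSO libraries and 2 counts in hymeglusin replicate 2 only, and stood at 38.6 and 33.7 CPM in the 2-month and 104 and 83.4 CPM in the 24-month cells. Gpx8, a peroxidase of the endoplasmic reticulum, had 4, 0 and 0 counts with DMSO and 2, 0 and 0 counts with hymeglusin. Gpx3, the secreted glutathione peroxidase, was at 0.340, 0.327 and 0.448 CPM with DMSO and 0.140, 0.167 and 0.343 CPM with hymeglusin. These 4 genes did not pass the filter on low counts in MLTC-1 and were not tested there, while all 44 passed it in the primary cells.

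**Figure D1:**
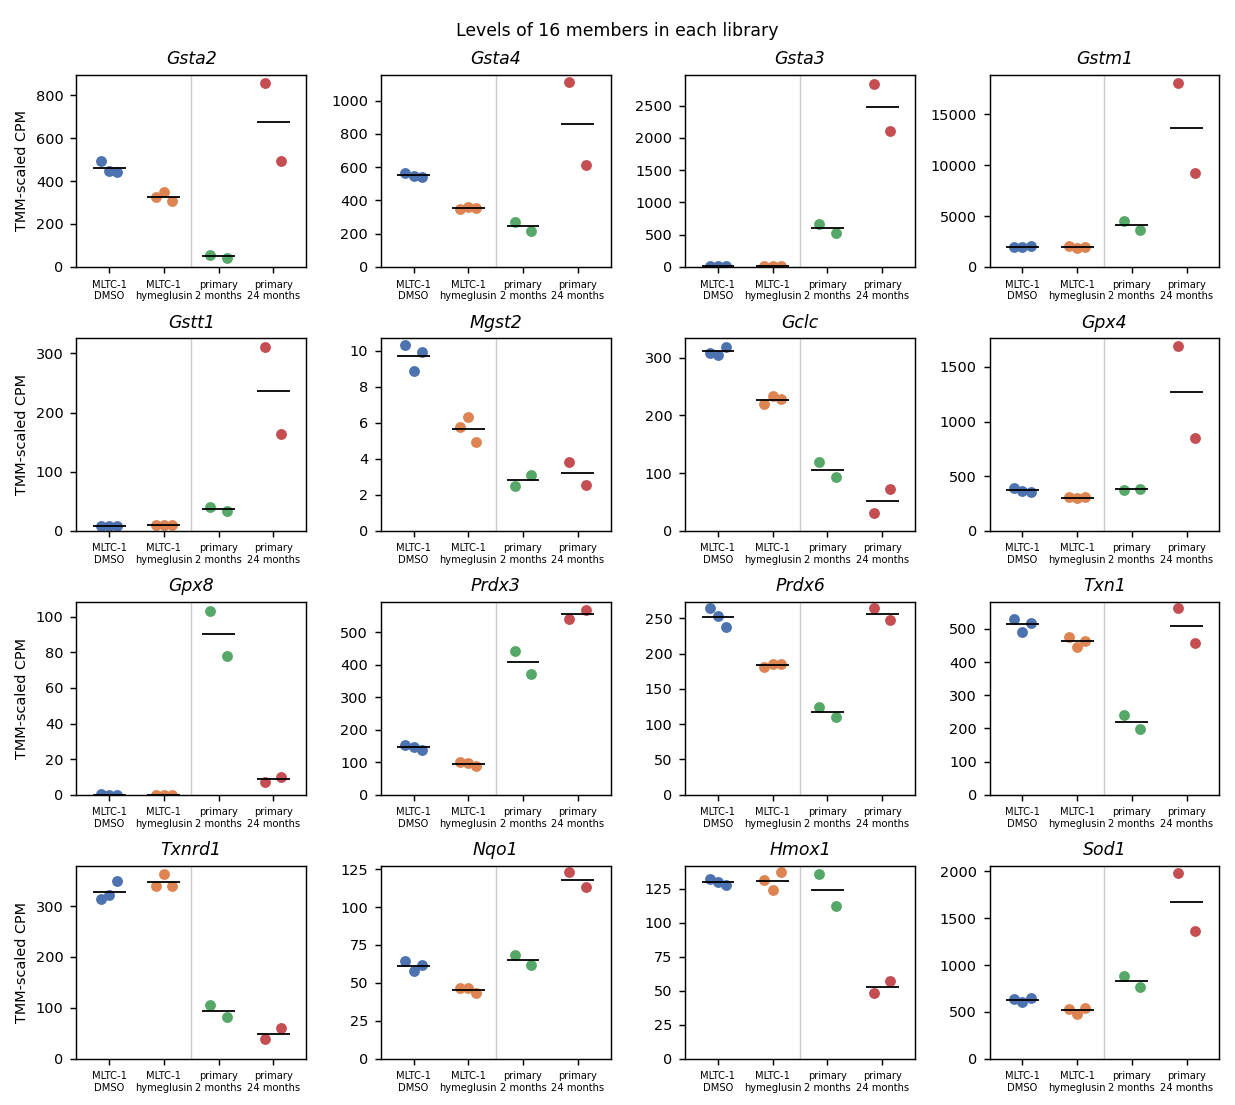
CPM of 16 of the 44 genes in each of the 10 libraries, on a linear axis, with a short line at the mean of each group. Gsta2 stands lower with hymeglusin than with DMSO and much higher at 24 than at 2 months, and Gpx8 is near 0 in MLTC-1 and falls from 103 and 77.7 CPM at 2 months to under 10 CPM in both 24-month libraries.

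The first comparison asked how hymeglusin changed these genes in MLTC-1. Of the 40 tested, 20 fell and 3 rose (7.50%), while 24.5% of all 12873 tested genes were called lower and 23.8% higher at an adjusted p under 0.05. Averaged over the members' own deciles of transcript length, 24.5% of genes were called lower and 19.1% higher, and with a length trend removed from each library the members counted 18 lower and 3 higher beside 26.5% and 22.9% of all genes. Without overlap between the groups, 21 members were lower and 3 higher in every hymeglusin library, as were 27.3% and 27.7% of all tested genes. The median log2 fold change of the 40 genes was -0.14, beside 0.01 over all genes, and no called member changed 2-fold. The 3 microsomal transferases all fell, as did 2 of 4 alpha-class and 1 of 5 mu-class transferases, 2 of 4 genes of glutathione synthesis and recycling, 2 of 3 tested glutathione peroxidases, 5 of 7 peroxiredoxin and sulfiredoxin genes, 2 of 4 thioredoxin system genes, 1 of 4 NRF2 axis genes and Sod1. Scaled by total counts, 14 fell and 9 rose, and the calls of Gstt2, Mgst3, Prdx2, Prdx4, Txn1 and Txnrd2 were lost, at log2 fold changes of -0.14, -0.12, -0.02, -0.03, -0.05 and -0.12. A single fit of all 10 libraries, whose spread includes that of the primary cells, called 2 lower, Prdx3 and Prdx6, and 0 higher.

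Among the transferases, Gsta4, which clears the lipid peroxidation product 4-hydroxynonenal, was at 566, 547 and 541 CPM with DMSO and 347, 359 and 357 CPM with hymeglusin. Every hymeglusin library was below every DMSO library (log2 fold change -0.64, SE 0.045, adjusted p = 4.5e-14). Gsta2, which like Gsta4 lies on chromosome 9, fell from 492, 449 and 443 CPM to 327, 348 and 308 CPM, again without overlap, by 0.49 on the log2 scale (SE 0.050, adjusted p = 3.12e-10). Gsta2 shares 64.2% of its 50-base words with transcripts of other genes, Gsta1 among them, so its level is uncertain. Gsta1, with 89.7% shared, and Gsta3 had no call, at log2 fold changes of -0.32 and 0.11. Of the mu class, Gstm2 was at 1238, 1026 and 1093 CPM with DMSO and 929, 922 and 969 CPM with hymeglusin (log2 -0.25, SE 0.052, adjusted p = 0.000156). Gstm1, the most abundant member, did not pass the test at means of 1981 ± 33.4 and 1955 ± 60.8 CPM (SD, n = 3 each), and Gstm5, Gstm6 and Gstm7 had log2 fold changes of 0.07, -0.19 and -0.09 without a call.

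The microsomal transferase Mgst2, which can also make leukotriene C4, was at 10.3, 8.87 and 9.94 CPM with DMSO and 5.77, 6.30 and 4.95 CPM with hymeglusin. Its fall of 0.77 on the log2 scale (SE 0.128, adjusted p = 5.12e-06) was the largest of the 20, and the groups did not overlap. Mgst1, which reduces lipid peroxides in membranes, was at 520.5, 479.6 and 478 CPM with DMSO and 364, 380.02 and 358 CPM with hymeglusin (log2 -0.42, SE 0.047, adjusted p = 2.52e-09). Mgst3 fell by less, from 20.8 ± 0.399 to 17.9 ± 1.43 CPM (SD, n = 3 each, log2 -0.22, adjusted p = 0.0301). Its adjusted p was 0.0707, 0.0569 and 0.0515 without DMSO replicate 1, 2 and 3 in turn, 0.184 without hymeglusin replicate 3, and 0.0551 with an offset for transcript length. Gstt2, a theta-class transferase, fell by 0.25 (SE 0.064, adjusted p = 0.00148).

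Gstt1, the theta-class transferase that acts on small halogenated compounds, moved the other way, from 8.46, 8.42 and 7.98 CPM with DMSO to 9.56 to 10.6 CPM with hymeglusin. Its 3 hymeglusin libraries were all above the DMSO libraries (log2 0.28, SE 0.112, adjusted p = 0.0384). The adjusted p was 0.0569, 0.0746 and 0.106 without DMSO replicate 1, 2 and 3 in turn, and 0.0864 and 0.131 without hymeglusin replicate 1 and 3. Gpx7, a peroxidase of the endoplasmic reticulum that passes oxidation to protein disulfide isomerase, was called higher at a low level. It had 23, 30 and 11 counts with DMSO and 40, 46 and 60 counts with hymeglusin, or 0.978, 0.893 and 0.448 CPM against 1.40, 1.53 and 1.72 CPM (log2 0.99, SE 0.313, adjusted p = 0.00872). Without DMSO replicate 3, its lowest library, the log2 fold change was 0.74 (adjusted p = 0.0654), and the members called higher then numbered 1. Srxn1, which repairs overoxidised peroxiredoxins, rose from 158, 152 and 166 CPM to 189, 186 and 185 CPM without overlap (log2 0.24, SE 0.049, adjusted p = 0.000129).

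Of the 6 peroxiredoxins, 5 fell. Prdx3, the mitochondrial peroxiredoxin, was at 153, 147 and 138 CPM with DMSO and 101, 96.4 and 87.8 CPM with hymeglusin. The groups were well apart (log2 -0.62, SE 0.055, adjusted p = 1.33e-11). Prdx6, which also reduces phospholipid peroxides, fell from 265, 254 and 238 CPM to 181, 185 and 185 CPM (log2 -0.46, SE 0.049, adjusted p = 8.07e-10). Prdx1, a cytosolic member, fell from 737, 667 and 634 CPM to 544, 574 and 536 CPM (log2 -0.30, SE 0.050, adjusted p = 5.07e-06). Both pairs of groups stayed apart. Prdx2 and Prdx4 fell by 0.13 and 0.14, with adjusted p-values of 0.0180 and 0.0261, and the Prdx4 groups overlapped. The adjusted p of Prdx2 was 0.0549 without DMSO replicate 2 and 0.0583 without hymeglusin replicate 2. That of Prdx4 was 0.145 without DMSO replicate 1, 0.104 without hymeglusin replicate 1, 0.0903 without hymeglusin replicate 3 and 0.0782 with the length offset. Prdx5 had no call (log2 -0.10, SE 0.061).

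Among the peroxidases, Gpx1, the main cytosolic enzyme, was at 321, 321 and 320.5 CPM with DMSO and 281, 257 and 262 CPM with hymeglusin (log2 -0.27, SE 0.047, adjusted p = 1.25e-05). Gpx4, which protects membranes from lipid peroxidation and ferroptosis, fell from 392, 363 and 356 CPM to 305, 297 and 309.9 CPM (log2 -0.28, SE 0.047, adjusted p = 5.5e-06). In both genes every hymeglusin library was lower than every DMSO library. Gpx4 shares 68.9% of its 50-base words with other transcripts, mostly of a pseudogene. Sod1 fell from 639, 609 and 646 CPM to 525, 480.03 and 544 CPM (log2 -0.29, SE 0.048, adjusted p = 5.27e-06).

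Of the genes that make and recycle glutathione and thioredoxin, Gclc, Gsr, Txn1 and Txnrd2 fell. Gclc, the catalytic subunit of glutamate-cysteine ligase, was at 309, 305 and 319 CPM with DMSO and 219.9, 234 and 228 CPM with hymeglusin (log2 -0.45, SE 0.047, adjusted p = 4.55e-10). Its modifier subunit Gclm stood at 89.7 ± 4.02 and 91.0 ± 1.40 CPM (SD, n = 3 each, log2 0.02, SE 0.053), and the glutathione synthetase Gss at 39.4 ± 1.19 and 38.7 ± 1.89 CPM. Gsr, glutathione reductase, fell from 182, 178 and 180.4 CPM to 146, 147 and 143 CPM (log2 -0.31, SE 0.048, adjusted p = 1.43e-06). Txn1, cytosolic thioredoxin, fell by 0.15 (adjusted p = 0.00680, and 0.414 under total-count scaling), and Txnrd2, the mitochondrial thioredoxin reductase, fell by 0.22 (adjusted p = 0.0158, and 0.138 without DMSO replicate 3). Txn2 and the cytosolic reductase Txnrd1 had log2 fold changes of 0.03 and 0.08 without a call. Whether Gclc differed from Gclm, or Txnrd2 from Txnrd1, in its change was not tested.

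Of the NRF2 axis, only Nqo1 was called. This quinone reductase was at 64.1, 57.7 and 61.9 CPM with DMSO and 46.5, 46.9 and 43.3 CPM with hymeglusin (log2 -0.43, SE 0.061, adjusted p = 4.31e-07). Nfe2l2, which encodes NRF2, stood at 116 ± 6.34 and 119 ± 2.04 CPM, its inhibitor Keap1 at 96.4 ± 3.45 and 100.1 ± 6.75 CPM, and the haem oxygenase Hmox1 at 129.9 ± 1.80 and 131 ± 6.55 CPM (SD, n = 3 each). Their log2 fold changes of 0.04, 0.05 and 0.01 had standard errors of 0.052, 0.055 and 0.051. Under total-count scaling, Nfe2l2 and Keap1 were called higher, at 0.14 and 0.16 (adjusted p = 0.0229 and 0.0142).

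**Figure D2:**
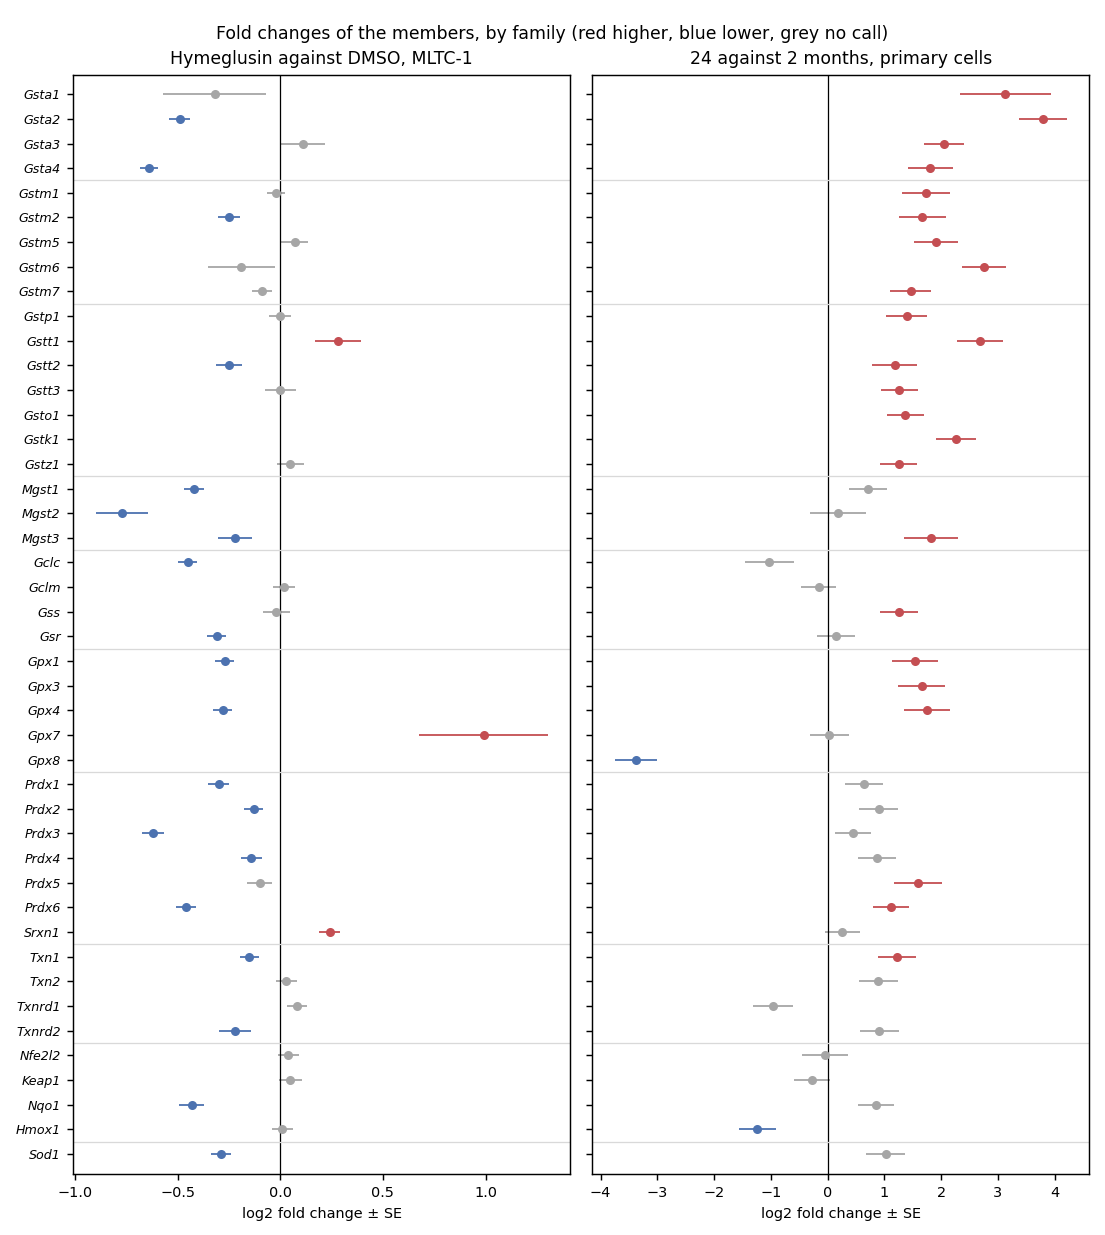
Log2 fold changes with standard errors of the 44 genes by family, for hymeglusin against DMSO in MLTC-1 and for 24 against 2 months in primary cells; Gsto1, Gstk1, Gpx3 and Gpx8 were not tested in MLTC-1 and have no point there. The MLTC-1 values lie between -0.77 and 0.99, and those of the primary cells between -3.38 and 3.79.

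The second comparison asked how the primary cells differed between 24 and 2 months. Of the 44 genes, 24 rose (54.5%) and 2 fell (4.55%), while 13.5% of all 16381 tested genes were called higher and 15.1% lower. All 4 alpha-class, all 5 mu-class and all 7 other soluble transferases rose, with 1 of 3 microsomal transferases, 1 of 4 genes of glutathione synthesis and recycling, 3 of 5 glutathione peroxidases, 2 of 7 peroxiredoxin and sulfiredoxin genes and 1 of 4 thioredoxin system genes. The 2 that fell were Gpx8 and Hmox1. The median log2 fold change was 1.20 over the members and -0.01 over all genes. Without 2-month replicate 1 the calls were 4 higher and 1 lower, and without 2-month replicate 2 they were 3 higher and 1 lower. Gsta2, Gstm6, Gstt1 and Gpx8 were called in both cases, Gstk1 also without replicate 1 (log2 2.40, adjusted p = 0.0432), and the other calls were lost. Without 24-month replicate 1 they were 31 higher and 4 lower, and without 24-month replicate 2 they were 32 and 5. Scaled by total counts, 10 rose and 2 fell.

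Short transcripts were higher as a whole at 24 months, and the members are short. The median log2 fold change fell from 1.38 in the shortest length decile of tested genes (55 to 1011 bases) to 0.01 in the fifth and -1.47 in the longest. Of the shortest decile, 51.8% of genes were called higher, beside 7 of its 10 members. In the second decile it was 32.2% of genes and 11 of 14 members, in the third 17% and 3 of 7, in the fourth 10.9% and 2 of 4, and in the fifth 7.36% and 1 of 3. Averaged over the members' own length deciles, 26.7% of genes were called higher and 3.98% lower. With a smooth length trend removed from each library, 7 members rose (15.9%) and 2 fell (4.55%), beside 8.21% and 5.65% of all genes, and the median of the members was 0.57. The 7 were Gsta2, Gsta3, Gstk1, Gstm6, Gstt1, Prdx6 and Txnrd2. Without overlap between the groups, 34 members were higher and 6 lower at 24 months, as were 35.9% and 37.9% of all tested genes. These 2 shares are not matched on transcript length. The 24-month replicates also differed from each other along this trend, with replicate 1 above replicate 2 by a median of 0.66 on the log2 scale in the shortest decile and by 0.44 over the members, 35 of which were higher in replicate 1. At 2 months the same differences were 0.01 and 0.27, and 41 members were higher in replicate 1.

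**Figure D3:**
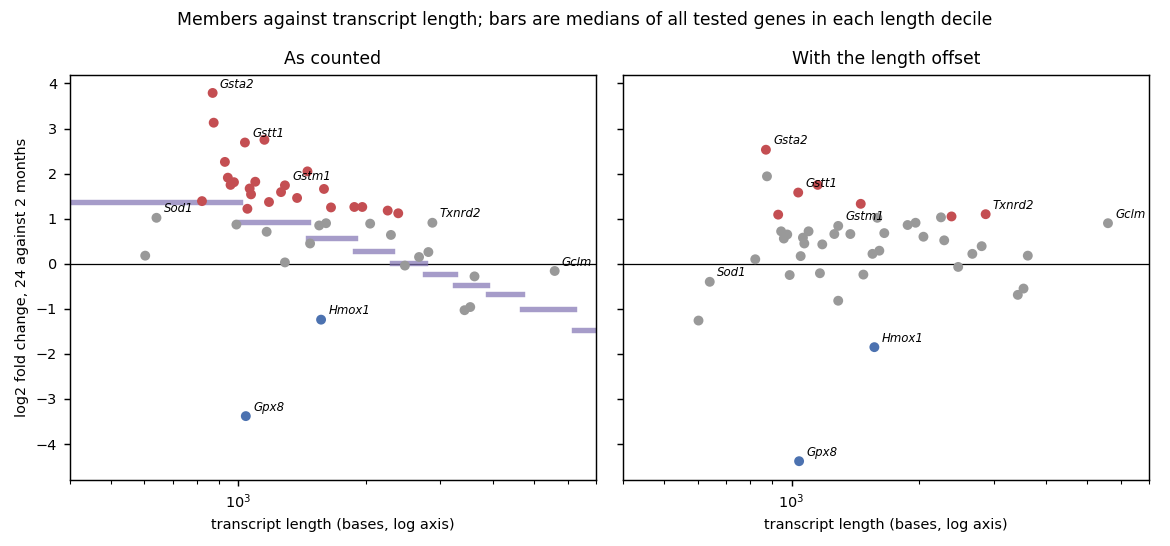
Log2 fold change of 24 against 2 months by transcript length on a log axis, as counted (with the median of each length decile) and after the length offset. The medians run from 1.38 for the shortest to -1.47 for the longest decile as counted, and the members' median moves from 1.20 to 0.57 with the offset.

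Gsta2 had the largest change of the 44 as counted, from 57.1 and 40.7 CPM at 2 months to 856 and 492 CPM at 24 months, or 13.8-fold (log2 3.79, SE 0.424, adjusted p = 0.00182). Both 24-month libraries were far above both 2-month libraries, and the log2 fold change was 2.53 with the length offset, smaller than that of Gpx8 (SE 0.329, adjusted p = 7.36e-05). Gsta3, a transferase that also isomerises steroid intermediates in some mammals, was at 663 and 532 CPM and then at 2841 and 2113 CPM (log2 2.05, SE 0.358, adjusted p = 0.00888, and 1.33 with the offset, adjusted p = 0.00672). Gsta4 rose from 271 and 219 CPM to 1113 and 612 CPM (log2 1.81, adjusted p = 0.0137), and with the offset stood at 0.65 without a call (adjusted p = 0.167). Gsta1 had 8 and 3 counts at 2 months and 33 and 40 at 24 months, a change of 3.13 (SE 0.798, adjusted p = 0.0223) at a level near the limit set by 3 counts, and without a call at 1.94 with the offset (adjusted p = 0.127).

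The 5 mu-class genes form a cluster on chromosome 3 between positions 107895854 and 108017973. Gstm6 rose from 38.2 and 37.9 CPM to 329 and 183 CPM (log2 2.75, SE 0.388, adjusted p = 0.00464), and by 1.75 with the offset (adjusted p = 0.00144). Gstm1 was at 4558 and 3636 CPM and then at 18097 and 9196 CPM (log2 1.74, SE 0.422, adjusted p = 0.0195), and Gstm2 at 2344 and 2103 CPM and then at 9466 and 4729.95 CPM (log2 1.67, SE 0.415, adjusted p = 0.0208). In all 3 genes the 24-month libraries were both higher, and replicate 1 was higher than replicate 2. Gstm1 stood at 0.84 with the offset without a call (adjusted p = 0.0776). Gstm5 and Gstm7 rose by 1.91 and 1.46, with adjusted p-values of 0.0127 and 0.0210. With the offset Gstm2, Gstm5 and Gstm7 stood at 0.58, 0.72 and 0.66 without a call.

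Of the other soluble transferases, Gstt1 rose from 40.1 and 33.0 CPM to 310.3 and 163 CPM (log2 2.69, SE 0.404, adjusted p = 0.00581). Gstk1 rose from 81.1 and 66.2 CPM to 409 and 296 CPM (log2 2.26, SE 0.350, adjusted p = 0.00631). With the length offset their log2 fold changes were 1.58 and 1.09 (adjusted p = 0.00335 and 0.0239). Gstp1, the pi-class transferase, rose from 108 and 95.6 CPM to 339 and 196 CPM (log2 1.39, adjusted p = 0.0242), and with the offset was at 0.10 (adjusted p = 0.860). It shares 62.3% of its 50-base words with Gstp2 and a pseudogene. Gstt2, Gstt3, Gsto1 and Gstz1 rose by 1.18 to 1.37, with adjusted p-values of 0.0181 to 0.0485, and had no call with the offset at 1.03, 0.86, 0.43 and 0.68. In the microsomal family Mgst3 rose, from 28.6 and 23.4 CPM to 135 and 48.7 CPM (log2 1.82, SE 0.472, adjusted p = 0.0234, and 0.72 without a call with the offset), while Mgst1 had a log2 fold change of 0.71 (adjusted p = 0.131) and Mgst2 of 0.18.

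The glutathione peroxidases went in both directions. Gpx8 was at 103 and 77.7 CPM at 2 months but at 7.32 and 9.96 CPM at 24 months, 10.4-fold lower (log2 -3.38, SE 0.369, adjusted p = 0.00174). Its groups were far apart, and the log2 fold change was -4.38 with the length offset (adjusted p = 2.08e-06). The stromal markers Pdgfra, Dcn and Col1a2 fell in the same libraries by 2.18, 1.70 and 4.38 (adjusted p = 0.0100, 0.0200 and 0.000593), while Lum and Dpt rose from means under 0.5 CPM, and their part in the level of Gpx8 was not tested. Gpx4 rose from 370.1 and 387 CPM to 1691 and 850.5 CPM (log2 1.75, SE 0.401, adjusted p = 0.0164), Gpx1 from 416 and 346 CPM to 1473 and 739 CPM (log2 1.54, SE 0.403, adjusted p = 0.0240), and Gpx3 from 113 and 83.1 CPM to 419.7 and 201 CPM (log2 1.66, SE 0.416, adjusted p = 0.0214). With the offset Gpx4, Gpx1 and Gpx3 stood at 0.56, 0.45 and 1.02 without a call. Gpx7 was at 23.4 and 15.8 CPM and then at 21.4 and 18.5 CPM (log2 0.03, SE 0.349).

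Peroxiredoxin levels were higher in both 24-month libraries than in both 2-month libraries for all 6 genes, beside 35.9% of all tested genes. That share is not matched on transcript length. Prdx5 and Prdx6 passed the test. Prdx6 rose from 125 and 110.4 CPM to 264 and 248 CPM (log2 1.12, SE 0.316, adjusted p = 0.0290), and by 1.05 with the length offset (adjusted p = 0.0268). Prdx5, found in mitochondria and peroxisomes, rose from 247 and 205 CPM to 933 and 426 CPM (log2 1.59, SE 0.420, adjusted p = 0.0244), and had no call with the offset (0.66, adjusted p = 0.184). Prdx1, Prdx2, Prdx3, Prdx4 and Srxn1 had log2 fold changes of 0.64, 0.90, 0.45, 0.87 and 0.26, with adjusted p-values of 0.0735 to 0.556. With the offset Prdx3 and Prdx4 turned to -0.24 and -0.25 without a call. Of the thioredoxin system, Txn1 rose from 241 and 197 CPM to 562 and 458 CPM (log2 1.22, SE 0.332, adjusted p = 0.0263), and had no call with the offset (0.17, adjusted p = 0.758). Txnrd1 was lower in both 24-month libraries, at 37.7 and 59.3 CPM against 106 and 82.7 CPM, but did not pass the test (log2 -0.96, SE 0.356, adjusted p = 0.0689). Txn2 and Txnrd2 stood at 0.89 and 0.91 (adjusted p = 0.0760 and 0.0733), and Txnrd2 was called with the offset at 1.10 (adjusted p = 0.0352).

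For glutathione synthesis, Gss rose from 17.1 and 15.7 CPM to 45.0 and 33.6 CPM (log2 1.26, SE 0.334, adjusted p = 0.0244), and had no call with the offset (0.91, adjusted p = 0.0607). Gclc, which sets the rate, was at 119.8 and 92.4 CPM and then at 30.5 and 73.0 CPM. Both 24-month libraries were lower, but far from each other, and the gene did not pass the test (log2 -1.03, SE 0.433, adjusted p = 0.0981). Without 24-month replicate 1 it was called at -0.58 (adjusted p = 0.0319), and without replicate 2 at -1.85 (adjusted p = 7.25e-05). Gclm and Gsr had log2 fold changes of -0.16 and 0.15.

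Hmox1, which degrades haem, fell from 136 and 112 CPM to 47.9 and 57.1 CPM (log2 -1.24, SE 0.326, adjusted p = 0.0241). The groups did not overlap, and the value was -1.85 with the length offset (adjusted p = 0.00116). Without 2-month replicate 1 or 2 its adjusted p was 0.310 and 0.15, at log2 fold changes of -1.11 and -1.40. Nqo1 was at 68.6 and 61.9 CPM and then at 123 and 113 CPM without a call (log2 0.85, SE 0.315, adjusted p = 0.0671). Nfe2l2 was at 104 and 84.1 CPM and then at 58.1 and 125 CPM, so that the groups overlapped (log2 -0.04, SE 0.404), and Keap1 stood at -0.28. Sod1 was at 886 and 762 CPM and then at 1980.3 and 1360.5 CPM (log2 1.02, SE 0.350, adjusted p = 0.0543). Its principal transcript is 641 bases long and its longest 3970, and its log2 fold change was -0.40 with the offset on the former and 1.48 (adjusted p = 0.00747) with the offset on the latter.

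Markers of other cell types also differed between these groups. Of the 12 spermatid markers, 9 rose at 24 months with a list median of 1.75. Of all tested genes, 13.5% were called higher and 15.1% lower. No share matched on the length of the markers was computed, and the part of the length trend in them was not tested. The summed level of the spermatid markers was higher in 24-month replicate 1 (12612 CPM) than in replicate 2 (6908 CPM). So were the sums of the mu-class genes (29439.9 and 14969 CPM) and of the Leydig cell markers (27176 and 18368 CPM). At 2 months replicate 1 was lower for the spermatid markers (2426 and 3180.1 CPM) but higher for the mu-class genes (7282 and 6132 CPM). Of the 9 tested macrophage markers, 4 rose, and of the 10 Leydig cell markers 1 rose and 2 fell. Sertoli cell markers were lower in sum at 24 months (59.0 and 73.0 CPM) than at 2 months (171 and 136 CPM). Nearly all of that sum was Aard, named after its values were seen, which fell from a mean of 148 to 54.8 CPM (log2 -1.43, adjusted p = 0.0189), and the 6 others tested had no call at means of at most 4.36 CPM. The part of these cells in the members' levels was not tested.

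**Figure D4:**
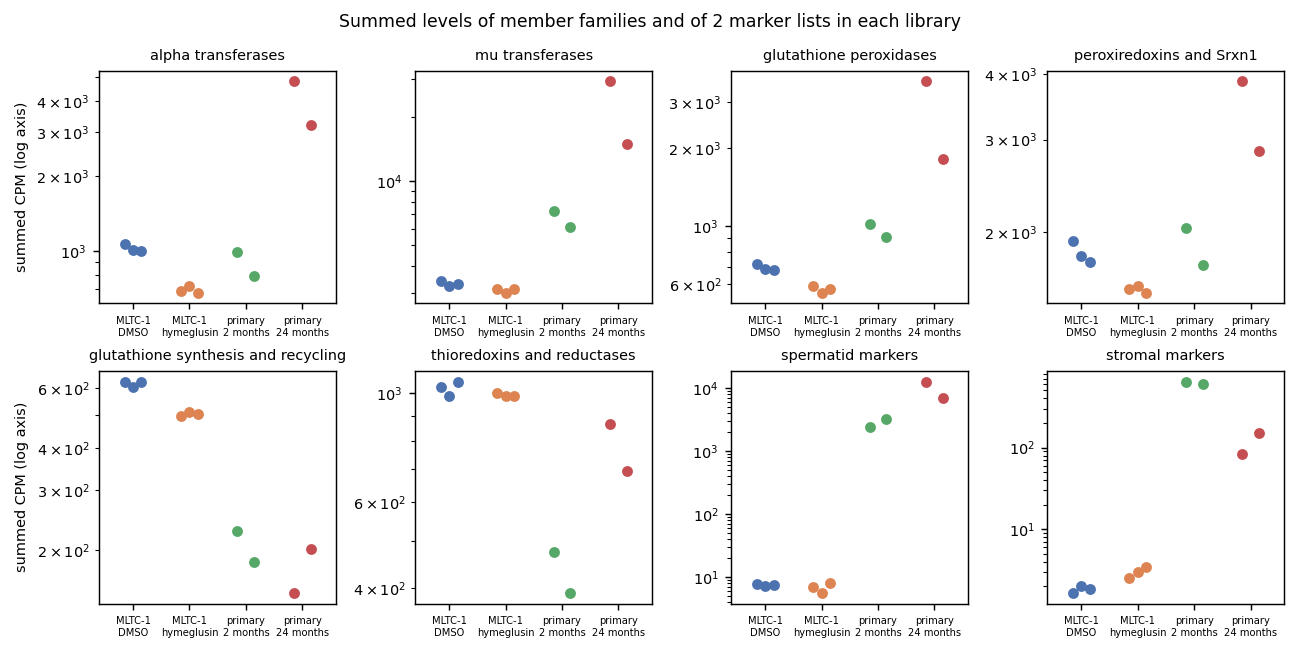
Summed CPM of 6 gene families and of the spermatid and stromal fibroblast marker lists in each library, on a log axis. The mu-class sum is 6132 to 7282 CPM at 2 months and 14969 to 29439.9 CPM at 24 months, where the spermatid marker sum is 6908 to 12612 CPM.

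The 2 comparisons share no samples. Of the 20 genes that fell with hymeglusin, 9 rose at 24 months: Gsta2, Gsta4, Gstm2, Gstt2, Mgst3, Gpx1, Gpx4, Prdx6 and Txn1. They were 45.0% of the 20, while 54.5% of all 44 members rose at 24 months. The 9 were also 37.5% of the 24 that rose, and 0 members fell in both. Those 24 include 3 not tested with hymeglusin, unlike the shares of all genes given next. Among the 12356 genes tested in both comparisons, 318 fell with hymeglusin and rose at 24 months, which is 10.4% of the 3071 that fell and 24.5% of the 1297 that rose. Gstt1 rose in both. These shares carry the length trend of the 24-month libraries. With the length offset at 24 months, only Gsta2 and Prdx6 of the 9 were called higher.

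The other genes of the same pathways were taken from a list of 76, of which 74 were in the table. With hymeglusin 36 of the 66 tested fell (54.5%) and 9 rose (13.6%), beside 24.5% and 23.8% of all tested genes, with a list median of -0.17. All 8 enzymes that supply NADPH fell, among them Nnt, the mitochondrial transhydrogenase, from a mean of 343 to 236 CPM (log2 -0.54, SE 0.046, adjusted p = 6.03e-12), the isocitrate dehydrogenase Idh1 (-0.48) and the malic enzyme Me1 (-0.46). Txndc5, a protein disulfide isomerase, fell by 0.63 and the thioredoxin-glutathione reductase Txnrd3 by 0.84. Those that rose included Ggt7 and Ggt5, of the gamma-glutamyltransferase family, by 0.71 and 0.42, the small MAF protein Mafk by 0.52, the biliverdin reductase Blvrb by 0.40 and Ugdh by 0.29. The count of 36 was 22 under total-count scaling.

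At 24 months 19 of the 71 tested pathway genes rose (26.8%) and 5 fell (7.04%), beside 13.5% and 15.1% of all tested genes, with a list median of 0.46. No share matched on the length of these genes was computed. Of the remaining transferases and peroxidases, 6 of 7 tested rose, including Gstm3 (log2 2.80, SE 0.424, adjusted p = 0.00605) and Gstt4 (2.06). The aldehyde dehydrogenase Aldh3a1 rose from a mean of 40.9 to 318 CPM (log2 2.96, SE 0.414, adjusted p = 0.00464), the small MAF protein Maff by 2.52 and the gamma-glutamyltransferase Ggt1 by 2.43. The 5 that fell were Slc7a11, the cystine carrier that feeds glutathione synthesis (171 to 28.5 CPM, log2 -2.58, SE 0.421, adjusted p = 0.00722), the glutathione conjugate exporter Abcc1 (-1.40), the NRF2 competitor Bach1 (-1.51), Mafg (-1.27) and Nfe2l1 (-1.14). As counted, 0 of the 8 NADPH enzymes were called. With the length offset 12 pathway genes rose (16.9%) and 1 fell (1.41%), beside 8.21% and 5.65% of all genes. The 1 was Slc7a11 (-1.14, adjusted p = 0.0213), and those that rose included the transketolase Tkt of the NADPH list (1.10, adjusted p = 0.0225). Without 2-month replicate 1 or 2, 6 and 4 rose and 1 fell each time.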

How the data were processed

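RNA was sequenced from 10 mouse libraries. The table deposited by the authors holds unnormalized counts, 1 column per library. fastp 0.23.4, FastQC 0.12.1, HISAT2 2.2.1, featureCounts 2.0.6 and the mm10 build are named, without roles, per the submitters' processing notes; the sources used here give neither strand setting nor annotation, so reads of overlapping or antisense genes cannot be told apart.

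MLTC-1 and primary libraries were fitted separately with edgeR 4.0.16 in R 4.3.3 (filterByExpr, minimum count 10 and minimum total 15; TMM scaling; robust quasi-likelihood F-test, two-sided; Benjamini-Hochberg adjustment over all tested genes; threshold 0.05). "Rose" and "fell" mean an adjusted p under that threshold. The standard error (SE) is the log2 fold change divided by the square root of F. Levels are TMM-scaled CPM, given per replicate in label order or as mean ± SD. Transcript length is that of the longest principal GENCODE M21 transcript. The length offset was a loess trend per library (span 0.3, 2 passes). Replicate pairs differed beyond sampling noise (chi-square per degree of freedom 3.44 to 134). Positions and promoter windows are RefSeq's on GRCm38.p6. The fits were tested on simulated counts.

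The members, families, pathway and marker lists were chosen with earlier results of these data known. Values in every library were given for members called with a log2 fold change of at least 0.5 in MLTC-1 or 1 in primary cells, called in both comparisons, or of highest level per kilobase in a family, and for some others chosen after their values were seen. Pathway genes were named by adjusted p, up to 5 per direction. Of the 11 marker lists, those not described in the report were low in every library (lymphocyte, peritubular, red blood cell and epididymis, at most 18.9 CPM in sum) or overlapped between ages (spermatogonia and spermatocytes, 274 and 412 CPM at 2 months, 406 and 402 CPM at 24 months, at most 5.33 CPM in MLTC-1). Endothelial markers summed to 78.4 to 84.6 CPM with DMSO and 99.3 to 105 CPM with hymeglusin, and to 13.5 to 28.5 CPM in primary cells. Alternatives were the length offset, leaving out each library, a replicate block, a single fit of all libraries, no count filter or one at 10 CPM, DESeq2 1.42.0, limma-voom (limma 3.58.1), and scaling by RLE, by upper quartile or by total counts. The principal transcript was taken as the length after the longest proved unrepresentative for some members, so the choice of principal over longest, and the offset on the longest, were made after seeing the data.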

Additional observations from a re-analysis of the deposited data

How the results depend on the processing

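No result changed direction with a call under any alternative run. With hymeglusin, the 3 members higher became 9 under total-count scaling, 1 with the 10 CPM filter and 0 in 1 fit of all libraries, which left 2 of 20 lower. Leaving out each library gave 1 to 3 higher and 18 to 19 lower. The pathway genes (9 higher, 36 lower) became 22 lower under total counts and 1 higher and 2 lower in the single fit. All genes (3069 higher, 3149 lower) became 4659 and 1996 under total counts and 645 and 289 in the single fit. At 24 months, the 24 members higher became 10 under total counts, 7 with the length offset, 9 with the offset on the longest transcript and 9 with the replicate block and the length offset together. The 2 lower became 4 without a count filter and 4 in the single fit. Without each library they were 3 to 32 higher and 1 to 5 lower. Pathway genes higher (19) became 8 under total counts, 42 in the single fit, 12 with the offset and 12 with block and offset, and those lower (5) became 11, 1, 1 and 1 in the single fit and the 3 offset fits. Without each library they were 4 to 33 and 1 to 11. All genes higher (2214) became 531 under total counts, 4309 in the single fit, 1345 with the offset and 1351 with block and offset, and all lower (2471) became 1301, 4559, 925 and 1174, and 982 with the offset on the longest transcript. Without each library they were 239 to 4259 and 602 to 5628. The cause of these shifts was not tested. Total counts moved the higher share of calls from 49.4% to 70.0% with hymeglusin and from 47.3% to 29.0% with age, where upper quartile scaling gave 59.6% and the length offset 59.3%, and moved the median of all genes to 0.11 and -0.21 (upper quartile 0.17 with age). Gsta2, Gstm6, Gstt1 and Gpx8 were called in all 16 alternatives with age. Leaving out a primary library leaves 1 in its group, which is then assumed to vary like the other pair.

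Libraries with the same replicate number did not deviate together over all genes. The correlations were 0.00, -0.02 and 0.03 in MLTC-1, and -0.09 in both primary pairs. With 2 libraries per primary group the deviations mirror each other, so both primary pairs give the same value. Such correlations cannot exclude a pairing by number. The replicate block alone gave 3 higher and 20 lower members with hymeglusin and 25 higher and 2 lower with age, with Sod1 added (adjusted p = 0.0411). The biological coefficient of variation was 0.307 in the primary cells and 0.0509 in MLTC-1.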
